A study of Mus musculus with 8 samples.

Results

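The data described are tRNA-derived fragments (tRFs) of pancreatic β-cells from wild type mice. These were 4 of the 8 small RNA libraries of a study of β-cells and diabetes, chosen by the genotype in their labels, and all 2226 tRF sequences of the deposited table were used, each of which had at least 1 count in a wild type library. The mice were males with the genetic background BKS.Cg-Dock7m+/+, 8 weeks of age, without treatment. For each preparation, the islets of several animals were pooled and dissociated, and β-cells were collected by flow cytometry on their autofluorescence. The table holds tRNA fragments only, so the β-cell label could not be checked against marker genes. The libraries are named WT1 to WT4. No genotype was compared. With 4 libraries, an exact test of a pair of measures within the libraries cannot go below p = 0.125, so values are given as the mean ± SD over the libraries (n = 4) without tests.

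Transfer RNAs carry amino acids to the ribosome and fold into an acceptor stem, a D arm, an anticodon arm and a T arm. The acceptor stem pairs the first bases of the molecule with bases near its 3′ end. A dedicated enzyme adds the letters CCA to the 3′ end of each tRNA, and the amino acid is attached to the last A. As a rule, a fragment that ends in CCA therefore comes from the 3′ end of a mature tRNA, whereas a 5′ fragment begins at the first base of the acceptor stem. Cuts in the anticodon loop, for which angiogenin is a known enzyme, give long 5′ and 3′ pieces, and cuts in the D or T loop give shorter ones. tRFs can regulate translation and mRNA stability, and 5′ fragments have been linked to stress. In the names used here the letters after the amino acid are the anticodon in DNA letters, so Trp-CCA is the tryptophan tRNA with the anticodon CCA, which is unrelated to the CCA tail.

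The libraries held 709421 (WT1), 672240 (WT2), 630696 (WT3) and 1265123 (WT4) tRF counts, each count being a unique molecule. In all 4 libraries, 2166 of the 2226 sequences were detected, 1671 had at least 5 counts in each, 1268 at least 10 and 384 at least 100. The 60 sequences that were missing from at least 1 library had at most 73 counts in any other. WT2 stood apart from the others in several respects that are given with each result. Its counts were spread over more sequences: 23 sequences made up 50% of its counts, against 14 in WT1, 10 in WT3 and 12 in WT4.

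The most abundant sequences of the repertoire were 3 fragments of the aspartate tRNA Asp-GTC that differed by a single base in length. They are shown first because they held 35.5 ± 3.50% of all counts. The CCA tail is in capitals.
Asp-GTC, 28 nt: cggggttcgattccccgacggggagCCA
Asp-GTC, 29 nt: ccggggttcgattccccgacggggagCCA
Asp-GTC, 27 nt: ggggttcgattccccgacggggagCCA
The 28-nt fragment had 106115, 78011, 101026 and 176416 counts in WT1 to WT4, or 14.1 ± 1.89% of all tRF counts. The 29-nt fragment had 110611, 58515, 102596 and 151048 counts (13.1 ± 3.51%), and the 27-nt fragment 35971, 68676, 38926 and 144373 counts (8.22 ± 3.07%). The 29-nt form was the first of the 3 in WT1 and WT3 and the 28-nt form in WT2 and WT4. Together they made up 35.6%, 30.5%, 38.5% and 37.3% of the libraries.

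The dominant fragment of each of the other 9 most abundant names is shown for the same reason. Each of them also ended in CCA, in capitals.
Pro-AGG, 27 nt: cgggttcaaatcccggacgagcccCCA
Trp-CCA, 17 nt: tcacgtcggggtcaCCA
Ser-GCT, 17 nt: tcccatcctcgtcgCCA
Gly-CCC, 27 nt: cgggttcgattcccgggcggcgcaCCA
Gly-ACC, 24 nt: gttcgaaaccgggcggaaacaCCA
Arg-TCT, 29 nt: tccgggttcgagtcccggcggagtcgCCA
Lys-CTT, 17 nt: ccccacgttgggcgCCA
Lys-TTT, 29 nt: ccagggttcaagtccctgttcgggcgCCA
Gln-CTG, 24 nt: gttcaaatctcggtggaacctCCA

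The counts were divided very unevenly among the 48 names of the table. Asp-GTC alone made up 46.2%, 40.7%, 50.7% and 48.9% of the counts of WT1 to WT4 (46.6 ± 4.37%). The lowest of these values lay far above every value of the second name, the proline tRNA Pro-AGG, with 7.92%, 8.72%, 8.33% and 5.56% (7.63 ± 1.42%). Trp-CCA followed with 7.75%, 5.54%, 5.78% and 4.90% (5.99 ± 1.23%), and Pro-AGG was above it in each library although the ranges overlapped. All libraries thus had the same 3 leading names.

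The serine tRNA Ser-GCT had 3.67%, 3.80%, 3.79% and 4.51% of the counts, below Trp-CCA in each library and without overlap. The glycine names Gly-CCC (4.10%, 3.13%, 3.41% and 2.70%) and Gly-ACC (3.11%, 4.24%, 3.08% and 2.77%) could not be ordered, since each was above the other in 2 libraries. The arginine tRNA Arg-TCT had 3.19%, 2.67%, 3.04% and 2.99%, and its range overlapped with those of both glycine names. Lys-CTT had 3.30%, 2.89%, 2.88% and 2.61%, and Lys-TTT, the other lysine tRNA, 1.56%, 2.14%, 1.36% and 2.95%. Lys-TTT was the higher of this pair in WT4 only. The glutamine tRNA Gln-CTG had 1.64%, 1.87%, 1.48% and 1.67%.

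A further 6 names reached a mean of 1%. These were the selenocysteine tRNA SeC-TCA (1.52%, range 1.08% to 1.93%), Leu-AAG (1.42%, 0.894% to 1.82%), Ala-CGC (1.41%, 0.952% to 2.48%), Glu-CTC (1.32%, 0.950% to 1.94%), Tyr-GTA (1.24%, 0.776% to 2.09%) and Phe-GAA (1.04%, 0.489% to 2.05%). With its sequences that lie inside those of another name moved there, Ala-CGC had 0.886%, below this limit. The 16 names of at least 1% held 88.3% of the counts, and the 40 names of at least 0.1% held 99.8%. Among the 15 pairs of neighbours in the order of the first 16, the ranges of 13 overlapped, and 4 pairs had the same order in all libraries. Beyond the first 3 places, the order is therefore within the spread between libraries for most names.

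**Figure D1:**
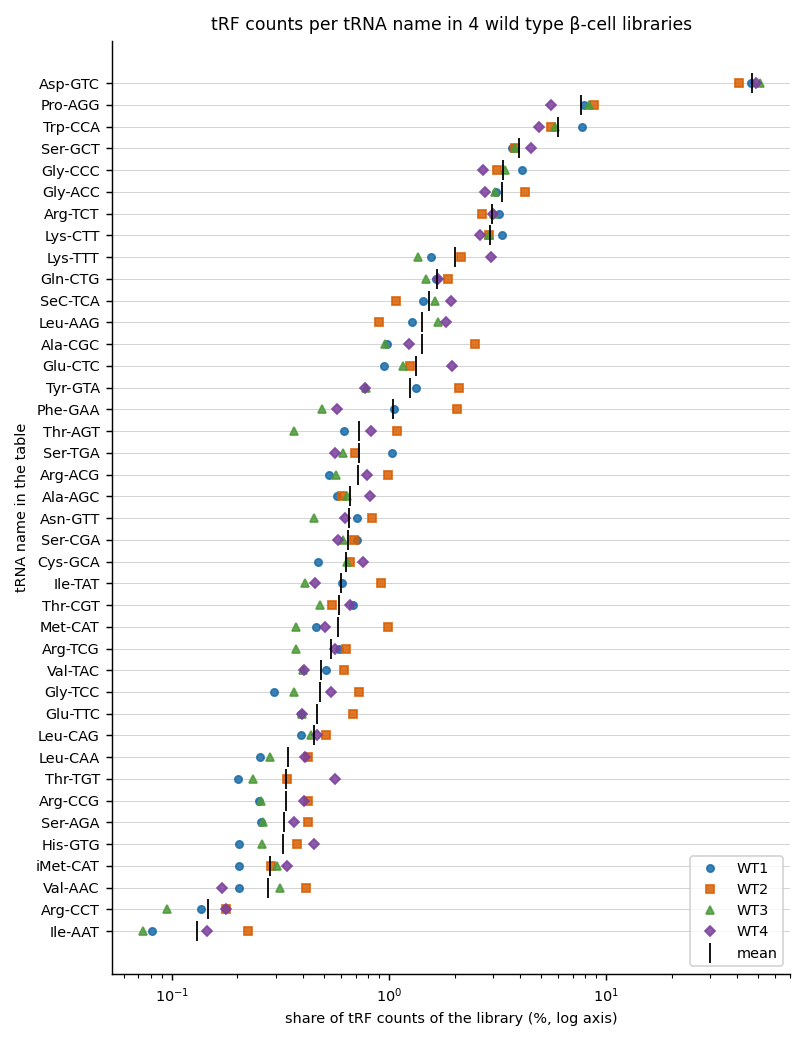
Share of tRF counts (%, log axis) of the 40 tRNA names with a mean of at least 0.1%, one point per library (WT1 to WT4) and a bar at the mean. Asp-GTC lies apart at 40.7% to 50.7%, and below Ser-GCT the points of neighbouring names mostly overlap.

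By amino acid, aspartate led, followed by proline (7.64 ± 1.42%, 2 names), glycine (7.21 ± 0.872%, 4 names), tryptophan (5.99%, 1 name), serine (5.64 ± 0.304%, 4 names), lysine (4.92 ± 0.541%, 2 names) and arginine (4.71 ± 0.271%, 5 names). At the other end were cysteine (0.632 ± 0.118%) and histidine (0.323 ± 0.111%). The glycine value includes Gly-ACC (3.30 ± 0.644%), whose counts could not be assigned to Gly-ACC or to Val-AAC, as described below. The place of glycine in this order, and that of valine, therefore depend on the listing. The shares are set beside the number of tRNA genes next. In the RefSeq annotation of GRCm38.p6, 16 tRNA genes carry the Asp-GTC anticodon and 56 the Cys-GCA anticodon, whereas Cys-GCA had 0.632% of the counts. Over the 43 names with RefSeq genes (both methionine names left out), the log2 share and the gene number had a Pearson correlation of 0.0389. It is given as a description, since names share libraries. It also depends on the listing described below, which places shared sequences under a single name. Val-CAC, for example, had 11 genes and 1 sequence. For a name with several gene copies the fragments could not be placed on a single gene.

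These shares are shares of the listed names, and a listed name can hold fragments of related tRNAs. Of 252 cases in which a sequence of one name lay inside a longer sequence of another, the shorter had the alphabetically earlier name in 252, in the spelling of the table, where tRNA names begin with tRNA. This concerned 88 sequences with 1.38% of the counts. The search found only sequences inside longer ones of another name. Sequences that names share in full were not found, so these values are minima. Ala-CGC held 18 sequences inside Ala-TGC sequences (0.522% of counts), Gly-CCC 15 inside Gly-GCC sequences (0.394%) and Pro-AGG 23 inside Pro-TGG sequences (0.298%). Of the counts of Ala-CGC fragments that ended in CCA, 52.3% were in sequences that were also part of another name. Gly-ACC held 5 sequences of 16 to 20 nt with the same 5′ beginning as 13 Val-AAC sequences of 22 to 30 nt. Moreover, bases 66 to 72 of all 15 CCA sequences of Gly-ACC, with 3.04 ± 0.556% of the counts, paired with the first 7 bases of the dominant Val-AAC 5′ fragment, so the counts of Gly-ACC and Val-AAC could not be assigned to either tRNA. The names with later letters, such as Ala-TGC (3 sequences), Pro-TGG (5) and Val-CAC (1), therefore have minimum values here.

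Within the 16 to 30 nt that the table covers, nearly all counts came from intact 3′ ends. Longer fragments, 5′ ones among them, are outside it. Fragments that ended in CCA (957 sequences) made up 92.3%, 88.4%, 90.2% and 93.6% of the counts of WT1 to WT4 (91.1 ± 2.30%). 5′ fragments, defined as those whose first 7 bases pair with bases 66 to 72 of a 3′ fragment of the same amino acid, made up 3.61%, 5.70%, 5.40% and 3.39% (4.53 ± 1.20%, 349 sequences). Fragments that stopped 1 to 3 bases short of the CCA end made up 2.81 ± 1.17% (197 sequences), and the other 723 sequences, named internal here, 1.53 ± 0.348%. The CCA class was the largest by far in every library. Without Asp-GTC it held 85.6 ± 3.33% of the counts and the 5′ class 7.17 ± 1.71%.

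The lengths of the CCA fragments fell into separate peaks, each of which corresponds to a start position in the tRNA. The table covers 16 to 30 nt. Since the last A is base 76 of the standard numbering, the length of a CCA fragment gives its first base, and in 98.0 ± 0.337% of the counts of CCA fragments of at least 23 nt the letters TTC of the T loop stood at positions 54 to 56, where they belong. Fragments of 29 nt (first base 48) held 21.97 ± 3.49% of the CCA counts, those of 28 nt (base 49) 19.6 ± 1.65% and those of 27 nt (base 50) 16.5 ± 5.27%. Bases 49 to 53 form the 5′ side of the T stem, so these fragments began at its edge. A smaller peak at 24 nt (base 53) held 6.41 ± 1.17%, and a pair of peaks at 16 nt (base 61, 7.29 ± 1.33%) and 17 nt (base 60, 7.10 ± 0.601%) began at the end of the T loop or just after it. The 18-nt and 22-nt lengths, which are typical of published 3′ fragments, held 2.65 ± 0.044% and 2.28 ± 0.246%.

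Asp-GTC fragments made up much of the long peaks. Without them, the peaks stood at 17 nt (13.9 ± 1.63%), 16 nt (13.7 ± 2.75%), 27 nt (12.5 ± 2.50%), 24 nt (11.9 ± 1.59%) and 29 nt (11.1 ± 2.78%), and the 28-nt share was 3.37 ± 1.21%. The 27-nt share of all CCA counts divided the libraries into pairs. It was 11.5% in WT1 and 12.5% in WT3, against 21.5% in WT2 and 20.6% in WT4, while the 29-nt share was lowest in WT2 (17.1%, against 21.9% to 24.98% elsewhere). The count-weighted mean length was 25.2 ± 0.312 nt for CCA fragments and 22.3 ± 0.556 nt for the others.

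**Figure D2:**
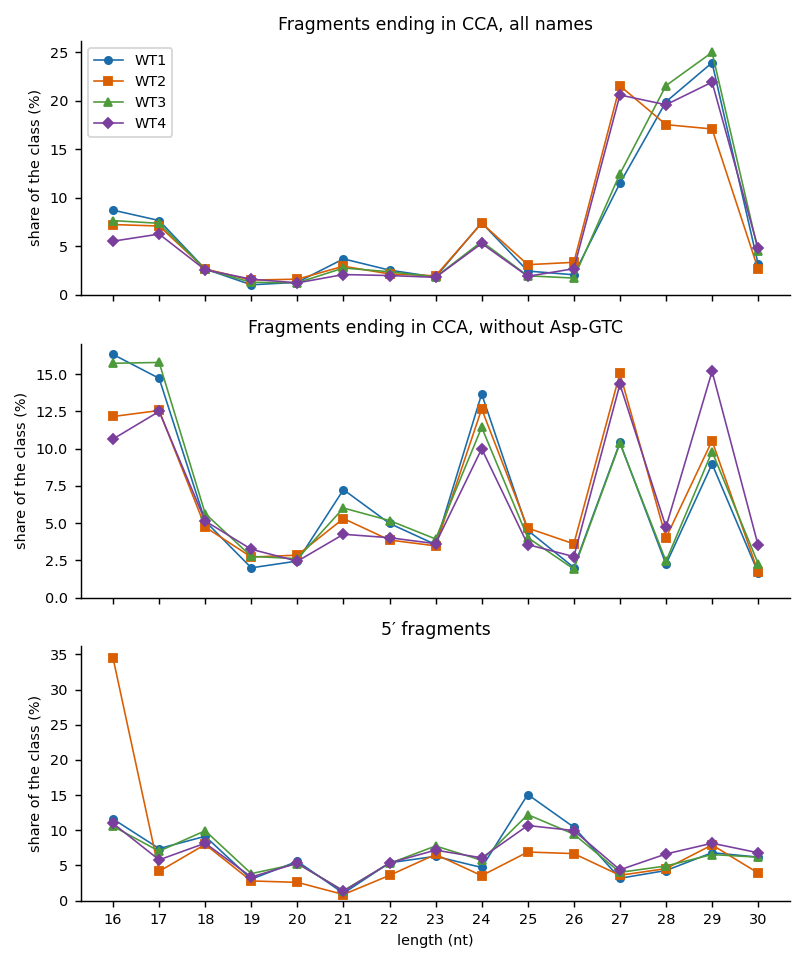
Share of counts (%) by fragment length (nt) in WT1 to WT4, for CCA fragments of all names, CCA fragments without Asp-GTC and 5′ fragments. The CCA panels peak at 16 to 17, 24, 27 and 29 nt, with 28 nt high through Asp-GTC, and the 16-nt 5′ fragments reach 34.5% in WT2 against 10.5% to 11.6% in the other libraries.

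The names differed in their preferred length, taken here from the mean over the libraries. Of the 40 names of at least 0.1%, the CCA fragments of 12 peaked at 24 nt, of 8 at 17 nt, of 7 at 27 nt, of 7 at 29 nt and of 3 at 16 nt. Single names peaked at 25 nt (Trp-CCA), 28 nt (Asp-GTC) and 30 nt (SeC-TCA), and none peaked at 18 to 23 nt. In some names the peak changed with the library. In WT1, Asp-GTC was highest at 29 nt (39.4%, against 38.2% at 28 nt) and Gly-CCC at 16 nt (19.7%, against 16.7% at 27 nt). In WT2, Arg-TCT was highest at 27 nt (23.4%, against 18.8% at 29 nt). Some names had a single sharp peak. For Val-TAC, 61.4 ± 5.53% of the CCA counts were of 24 nt, for Asn-GTT 60.6 ± 18.9% of 16 nt, for Glu-CTC 60.3 ± 15.8% of 29 nt and for Glu-TTC 55.6 ± 10.1% of 27 nt. Others were spread out, such as Trp-CCA, whose highest length held 14.2 ± 0.843%. Glu-CTC and Glu-TTC, which carry the same amino acid, thus peaked 2 nt apart in the mean and in WT1, WT3 and WT4, whereas in WT2 the 27-nt (40.7%) and 29-nt (40.01%) shares of Glu-CTC were nearly equal. By contrast, the lysine names Lys-CTT (17 nt, 44.8 ± 6.26%) and Lys-TTT (29 nt, 44.1 ± 4.94%) peaked at short and at long lengths.

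**Figure D3:**
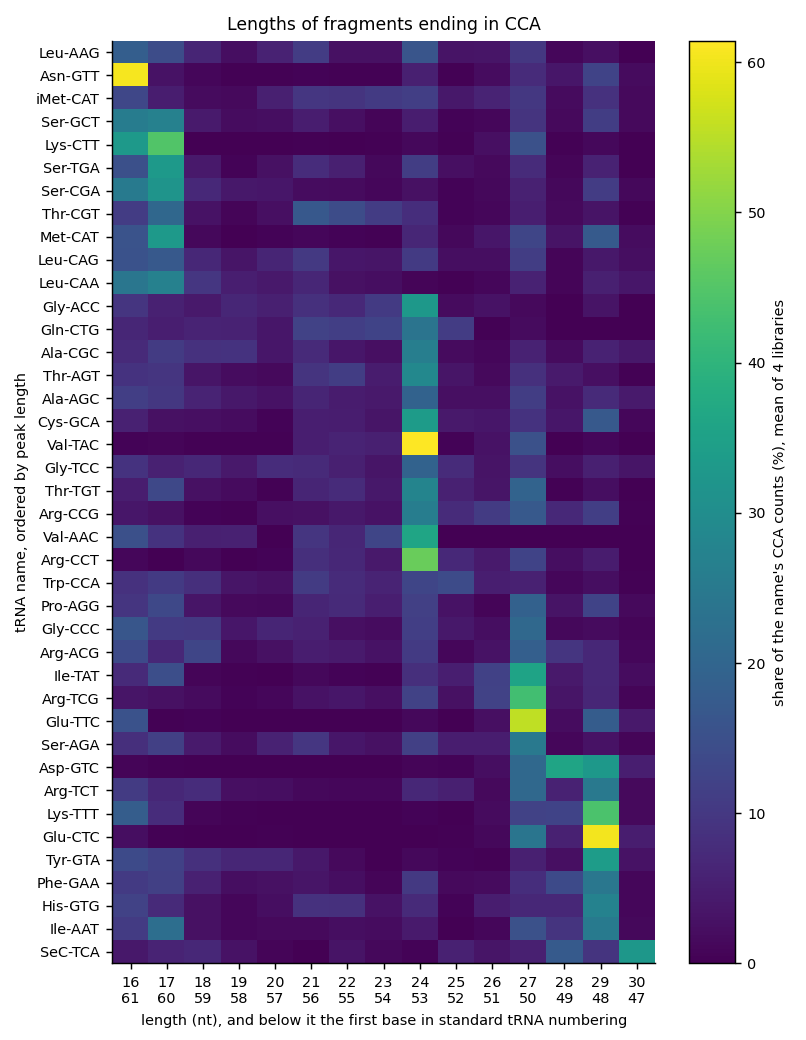
Heat map of the mean share (%) of each name's CCA counts by length (nt), with the first base in standard tRNA numbering below each length, for 40 names ordered by peak length. Bright columns stand at 16 to 17, 24, 27 and 29 nt, and Asn-GTT, Val-TAC and Glu-CTC have the sharpest single peaks at 60.3% to 61.4%.

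The kind of fragment differed widely between names. In 20 of the 40 names more than 90% of the counts ended in CCA, and in 5 names less than 50% did. The highest shares were those of the threonine tRNAs Thr-AGT and Thr-CGT, with 100% in each library, and of Arg-TCT (99.8 ± 0.128%). The lowest was that of Val-AAC, with 9.74%, 4.05%, 4.18% and 4.78% in WT1 to WT4 (5.69 ± 2.72%). This value depends on the listing, because CCA fragments with a matching stem are listed under Gly-ACC with 3.04% of all counts, whereas Val-AAC as a whole had 0.276 ± 0.111%. Leu-CAG had 35.8 ± 8.56% and iMet-CAT, the initiator methionine tRNA, 39.6 ± 9.36%. As listed, 5′ fragments prevailed in these names, with 86.5 ± 3.45% of the Val-AAC counts, 62.1 ± 8.70% of Leu-CAG and 52.4 ± 8.98% of iMet-CAT. The other names below 50% were Glu-TTC (41.2 ± 17.9%), with 54.8 ± 16.9% in 5′ fragments, and Cys-GCA (45.6 ± 12.3%), with 37.2 ± 15.6% in internal ones. In Glu-TTC the CCA share ranged from 25.01% in WT1 to 60.6% in WT2, so the leading class depended on the library.

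**Figure D4:**
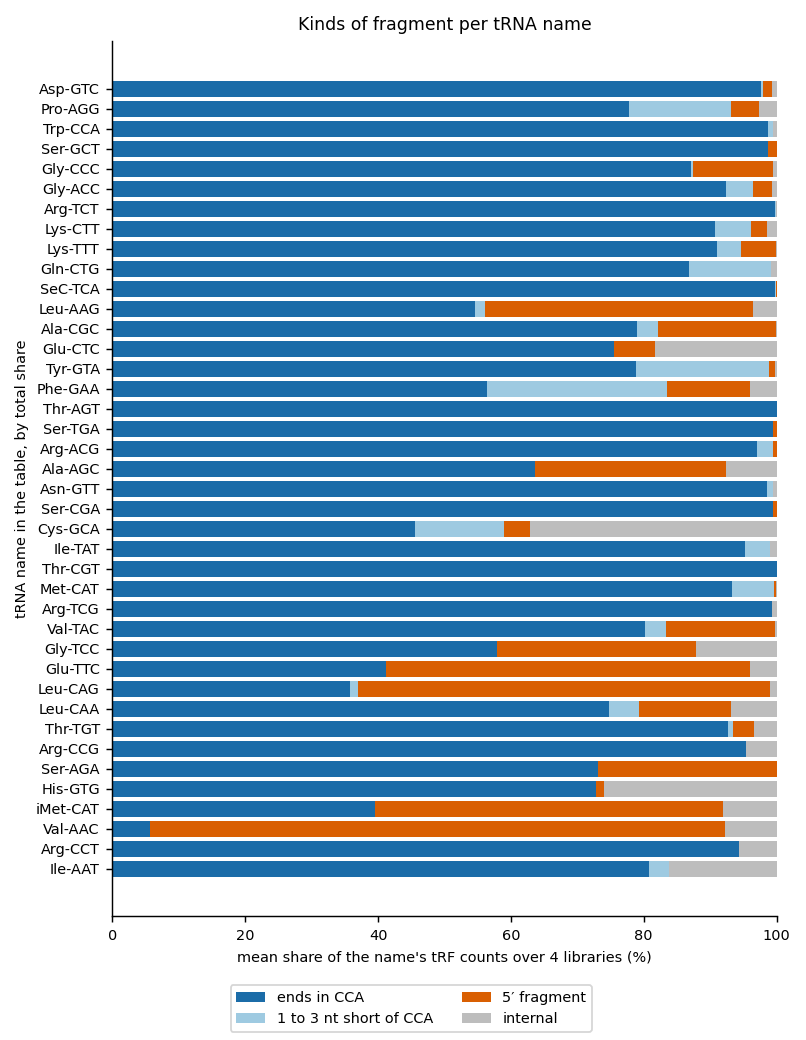
Mean share (%, n = 4) of each name's tRF counts in CCA fragments, fragments 1 to 3 nt short of CCA, 5′ fragments and internal fragments, for 40 names ordered by total share. CCA fragments fill most bars, and Val-AAC (5.69%), Leu-CAG (35.8%) and iMet-CAT (39.6%) have the lowest CCA shares.

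The 3′ ends that lacked the full CCA were concentrated in a few names. Pro-AGG held 42.3% of all their counts. Within its own 3′ ends, 17.03%, 22.4%, 14.4% and 11.6% of the counts stopped short (16.3 ± 4.62%). The share was higher still for Phe-GAA (32.4 ± 3.70%), Cys-GCA (22.4 ± 5.17%) and Tyr-GTA (20.3 ± 3.10%), and Gln-CTG had 12.4 ± 3.31%. Asp-GTC, with the most counts, had 0.311 ± 0.026%, so its 3′ ends were almost all complete, and 0.167 ± 0.127% was found for Arg-TCT. Of the counts of such fragments, 1.27 ± 0.485% of all tRFs stopped 1 base short, 1.06 ± 0.554% 2 bases short and 0.481 ± 0.139% 3 bases short. WT2 had the most, with 4.43% of its counts, against 1.68% to 2.79% in the others. In 126 of the 161 such sequences with at least 10 counts in every library, the share was highest in WT2. For illustration the dominant short fragments of Pro-AGG and Phe-GAA are given, with what is left of the CCA in capitals. They begin at base 50 and base 48.
Pro-AGG, 25 nt: cgggttcaaatcccggacgagcccC
Phe-GAA, 28 nt: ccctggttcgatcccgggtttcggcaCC
The first had 2650, 3515, 1584 and 2069 counts and the second 281, 572, 90 and 235, and both were highest in WT2, although WT4 had the most counts in all.

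5′ fragments came from 33 names. Asp-GTC had the highest mean, with 13.7%, 12.1%, 19.4% and 15.5% of the 5′ counts of WT1 to WT4 (15.2 ± 3.15%), far below its share of all counts. It was above every other name in WT3 and WT4, whereas Leu-AAG was first in WT1 and Ala-CGC in WT2. Leu-AAG followed with 16.7%, 5.69%, 16.3% and 13.7% (13.1 ± 5.12%), and Gly-CCC with 14.1%, 5.74%, 10.4% and 6.80% (9.27 ± 3.81%). Ala-CGC had a mean of 7.32 ± 13.6% that rested on WT2 and is described next. Pro-AGG (7.15 ± 2.98%), Leu-CAG (6.32 ± 0.963%), Glu-TTC (5.54 ± 1.42%) and Val-AAC (5.16 ± 0.962%) came next. Of the Pro-AGG 5′ counts, 91.4% were in 14 sequences that also lie inside Pro-TGG sequences. No single name led in all libraries. The 5′ class is illustrated by the dominant 5′ fragments of the names with most counts outside the CCA class, with the 7 bases of the acceptor stem in capitals.
Asp-GTC, 18 nt: TCCTCGTtagtatagtgg
Leu-AAG, 25 nt: GGTAGCGtggccgagcggtctaagg
Ala-CGC, 16 nt: GGGGATGtagctcaga
Phe-GAA, 25 nt: GCCGAAAtagctcagttgggagagc
Pro-AGG, 18 nt: GGCTCGTtggtctagggg

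Ala-CGC had an exceptional fragment, the 16-nt sequence shown. It had 74, 10635, 326 and 132 counts in WT1 to WT4. In WT2 it made up 63.9% of the Ala-CGC counts and 27.7% of all 5′ counts, against at most 5.43% and 0.957% in the other libraries. It was the only 5′ sequence listed for Ala-CGC. The mean share of Ala-CGC in all counts was 1.05% without WT2 instead of 1.41%, and the share of 5′ fragments in all counts was 4.13% instead of 4.53%. With this sequence, the share of 5′ counts that begin with 4 or more G, a feature of 5′ fragments known to act on translation, was 31.04% in WT2, whereas it was 5.08%, 6.28% and 5.96% in WT1, WT3 and WT4. Whether it was made in the cells or in the library preparation was not tested. The first base of the 5′ fragments was G in 73.9 ± 4.22% of the counts, T in 22.5 ± 3.44% and A in 3.43 ± 1.13%. Their lengths were widely spread, with 35.0 ± 9.67% at 16 to 19 nt, 17.7 ± 2.79% at 20 to 23 nt, 29.1 ± 5.71% at 24 to 27 nt and 18.2 ± 2.30% at 28 to 30 nt. The table ends at 30 nt, so longer 5′ fragments are not covered.

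**Figure D5:**
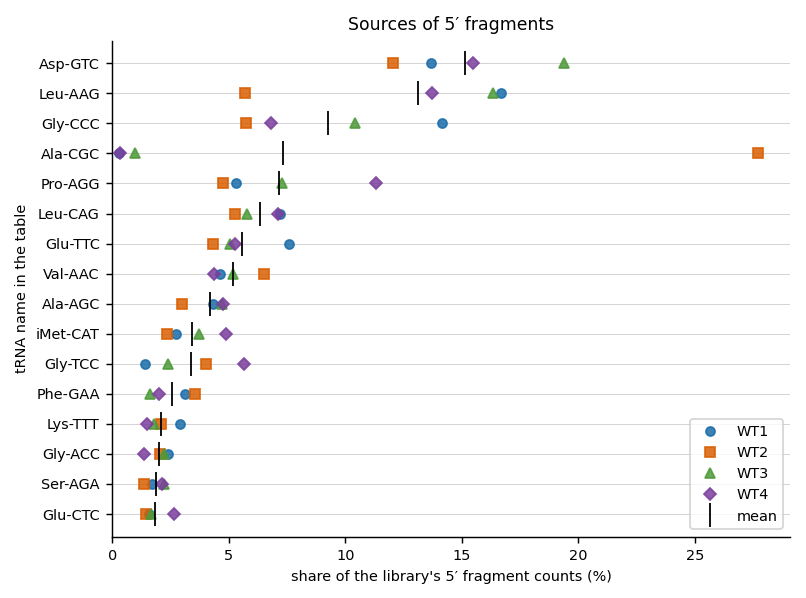
Share (%) of each library's 5′ counts for the 16 names with most of them, one point per library and a bar at the mean. Asp-GTC has the highest mean (15.2%), and Ala-CGC reaches 27.7% in WT2, against at most 0.957% in the other libraries.

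A list of 11 tRNAs known as sources of 5′ fragments held 44.4 ± 6.63% of the 5′ counts, in 10 names, and 56.6 ± 4.26% of all counts, most of which was Asp-GTC. Without Asp-GTC, the other 10 tRNAs of the list held 29.3 ± 5.03% of the 5′ counts and 10.03 ± 0.194% of all counts. Besides Asp-GTC, Gly-CCC, Glu-TTC and Val-AAC, these were Ala-AGC (4.19 ± 0.840%), Glu-CTC (1.82 ± 0.554%), Lys-CTT (1.58 ± 0.139%), Gly-GCC (1.04 ± 0.358%), Cys-GCA (0.575 ± 0.239%) and His-GTG (0.082 ± 0.019%). Val-CAC had no 5′ fragment of its own in the table, where its only sequence, of 21 nt, was internal. As 5 Val-AAC sequences lay inside that Val-CAC sequence, the valine names are not separable for them. Leu-CAG is known for a 3′ fragment of 22 nt, and this length held 3.80 ± 0.329% of its CCA counts.

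The 5′ fragments of Glu-CTC and Gly-GCC, which were followed in the study, were a minor part of this baseline. The 5′ fragments of Glu-CTC had 399, 555, 557 and 1133 counts in WT1 to WT4, or 0.079 ± 0.016% of all tRF counts. The 5′ fragments of Gly-GCC had 240, 221, 433 and 584 counts (0.045 ± 0.017%), with 26.0 ± 8.26% at 25 nt and 19.1 ± 6.73% at 30 nt. The dominant 5′ fragment of Gly-GCC was the following, with the acceptor stem bases in capitals.
Gly-GCC, 25 nt: GCATGGGtggttcagtggtagaatt
It had 69, 23, 101 and 86 counts in WT1 to WT4, with the lowest value in WT2. In Glu-CTC, 75.6 ± 12.3% of the counts were CCA fragments and 6.19 ± 1.25% 5′ fragments. Gly-GCC, at 0.091 ± 0.024% of the counts, had 49.5 ± 7.66% in 5′ fragments and 37.7 ± 8.74% in CCA fragments. These Gly-GCC values leave out the 15 sequences, 14 of them ending in CCA, that are listed under Gly-CCC and also lie inside Gly-GCC sequences, with 0.394% of all counts.

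Among the names of at least 0.1%, internal fragments had the highest mean shares in Cys-GCA (37.2 ± 15.6%), His-GTG (26.0 ± 9.75%) and Glu-CTC (18.2 ± 11.4%). In Glu-CTC they ranged from 10.7% to 34.7% over the libraries, in 108 sequences. Ile-AAT came next with 16.2 ± 3.92% (13.1% to 21.9%), so the order of Glu-CTC and Ile-AAT is within the spread between libraries. Of the internal counts of Glu-CTC, 90.8 ± 0.546% began at base 5 or later within its 5′ fragments, and the most abundant of them, of 19 nt, began at base 8, just behind the acceptor stem. The internal counts of Cys-GCA (85 sequences) and Ala-AGC (21 sequences) did not lie inside a 5′ fragment of the same name. Over all names, 7.27 ± 1.27% of the internal counts began at bases 2 to 4 of a 5′ fragment and 24.2 ± 2.73% further inside one. The internal class also holds 7 Ile-AAT sequences that share a common first stretch of 8 bases but whose first 7 bases do not all pair with the 3′ side of the stem, 14.2% of the Ile-AAT counts.

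The dominant fragment of a name, the sequence with the highest mean share, ended in CCA in 39 of 48 names. It was a 5′ fragment in 7 (Ala-CGC, Leu-CAG, iMet-CAT, Val-AAC, Gly-GCC, Leu-TAG and Pro-TGG) and internal in 2 (Val-CAC and mmu-mir-1983). For Ala-CGC this held in WT2 only, where the fragment had 63.9% of the name's counts, against 0.849% to 5.43% in the others. For Val-AAC, Gly-GCC and Pro-TGG it may depend on the listing. Sequences that could also be theirs are listed under Gly-ACC, Gly-CCC and Pro-AGG. In 29 names the dominant fragment ranked first in each of the 4 libraries, in 10 in 3 libraries, in 6 in 2 and in 3 in a single library. The names differed in how far a single sequence prevailed. The highest shares were those of Asn-GTT (78.9%, 43.6%, 71.7% and 43.4% of the name's counts, mean 59.4 ± 18.6%), Val-TAC (59.99%, 42.6%, 48.7% and 46.2%, mean 49.4 ± 7.50%) and Glu-CTC (58.2%, 33.1%, 40.2% and 47.5%, mean 44.7 ± 10.7%). The lowest were those of Ala-AGC (6.74 ± 1.29%), Leu-AAG (9.60 ± 1.37%) and Trp-CCA (10.3 ± 0.571%), so that these names were mixtures of many similar fragments. Over the 40 names the median share was 20.3%.

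Many 3′ fragments occurred in a pair of forms that differed at a single base. For Asp-GTC the base at position 57, counted in standard numbering and just after the TTC letters, was G or A (G57A). The 28-nt forms are shown with this base in capitals.
Asp-GTC with G: cggggttcGattccccgacggggagcca
Asp-GTC with A: cggggttcAattccccgacggggagcca
The A form had 16198, 12743, 14934 and 27397 counts. Over 11 lengths, the A form held 11.9 ± 0.391% of the counts of both forms, a share that varied very little between libraries. It depended on the length, with 13.4 ± 0.486% at 28 nt, 12.1 ± 0.354% at 29 nt and 11.4 ± 0.949% at 27 nt, but 2.00 ± 0.631% at 24 nt and 1.80 ± 0.860% at 25 nt. The ranges at 24 and 25 nt did not overlap with those at 27 to 29 nt. In Trp-CCA, the A form of G59A held 40.6 ± 1.78% over 12 lengths. In all, 239 such pairs of sequences were found, and 27 kinds of pair occurred at 3 or more lengths, in 17 names. Whether they are products of different tRNA genes was not tested.

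The spread between libraries was much larger than counting error. The coefficient of variation (CV) of a name's share had a median of 25.1% over the 40 names, against at most 3.57% from counting. The smallest CVs were those of Arg-TCT (7.44%), Asp-GTC (9.37%) and Ser-CGA (9.45%). The largest were those of Phe-GAA (68.7%), Ile-AAT (53.2%) and Ala-CGC (51.2%). For Phe-GAA the shares were 1.06%, 2.05%, 0.489% and 0.574% in WT1 to WT4, and for Ile-AAT 0.081%, 0.224%, 0.074% and 0.145%. All 3 were highest in WT2. Per sequence, the median CV of the 1268 sequences with at least 10 counts in each library was 39.4%, with 11.8% from counting, and 556 of them were highest in WT2. For each pair of libraries, the sequences with at least 10 counts in both (1366 to 1646) were compared. Their log2 shares had Pearson correlations across sequences of 0.882 (WT2 and WT3) to 0.946 (WT1 and WT3), and 63.9% to 83.8% of them lay within 2-fold. These correlations describe the libraries, since sequences of a tRNA are not independent. As only shares of tRFs were measured, a larger share of a name and fewer fragments of the others cannot be told apart.

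Some names were not ordinary tRNAs. No mitochondrial tRNA was listed (0 names), although the authors had also matched reads to mitochondrial tRNAs. Whether rows had been filtered out of the table is not known, so this absence is not a result about the cells. The name mmu-mir-1983 held 3 sequences with 0.0041 ± 0.0012% of the counts, all 3 of which lay inside the Mir1983 hairpin of RefSeq (chr13:21896918-21897049, minus strand, GRCm38.p6). The gene of an Ile-TAT tRNA, n-TItat14, lies inside this hairpin (chr13:21896938-21897031), and 1 of the 3 sequences, of 24 nt, was also part of Ile-TAT fragments. The mature miR-1983 of RefSeq was not among the sequences of the table. The suppressor tRNA name Sup-TCA held 2 sequences with 0.0029 ± 0.0013% of the counts. Its 17-nt sequence differed from the dominant fragment of Lys-CTT by G66A. They are shown with this base in capitals, followed by this mmu-mir-1983 sequence.
Lys-CTT: ccccacGttgggcgcca
Sup-TCA: ccccacAttgggcgcca
mmu-mir-1983: tgagttcgagcctcacctggagca
The Sup-TCA sequence had 22, 8, 11 and 12 counts, against 10830, 6346, 8029 and 12908 of the Lys-CTT sequence.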

How the data were processed

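Small RNA libraries were made by the authors with a QIAseq kit that adds a molecular identifier (UMI) before amplification, and read single-end. The authors trimmed adapters, used the UMI to count each molecule once, mapped the reads to GRCm38.p6 and matched them without mismatches with bowtie 1 to mature tRNAs of GtRNAdb and mitochondrial tRNAs. Per sequence and library, the deposited table holds the authors' count of unique molecules, an RPM value that was rounded to whole numbers (treated as a score) and the authors' normalised log2 value, which was not used. A column with the authors' direction of change was not used either.

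Shares were computed from the counts with Python 3.11.15, pandas 2.3.3 and numpy 2.4.6, each library weighing the same. Depth was 630696 to 1265123 counts. Libraries were grouped by the genotype in the labels. Fragments were classed from their sequences: ending in CCA, 1 to 3 bases short of it (an overlap of 12 bases with a CCA fragment of the same name), 5′ (pairing, G-T pairs allowed) or internal. One 24-nt iMet-CAT sequence ends in CCA inside the tRNA and was not used to place others. Names with a mean share of at least 1%, extremes among those of at least 0.1%, known 5′ sources, Leu-CAG, the names followed in the study and non-tRNA names are described. The members and lists were chosen with earlier results of these data known, and the 5′ rule after the table had been seen. Scripts were tested on simulated data. The sequence of 1 fragment is not reported here.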

Additional observations from a re-analysis of the deposited data

Results flagged for a closer look

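Dixon's criterion was applied to 100 groups of 4 library values, of which 8 had a value far outside the others. Chance alone gives about 1 in 20 such groups. In 5 of them the library was WT2. The share of 5′ counts beginning with 4 or more G was 31.04% in WT2, against 5.08% to 6.28% elsewhere, and the CCA share of Ala-CGC was 34.1%, against 90.8% to 96.2%; the 16-nt Ala-CGC fragment belongs to both. WT2 also had the lowest CCA share of Pro-AGG (72.8%, against 79.1% to 80.0%) and of Arg-TCT (99.6%, against 99.9% in the other 3) and the highest share of Glu-TTC (0.681%, against 0.392% to 0.397%). WT1 had the highest CCA share of Val-AAC (9.74%, against 4.05% to 4.78%). WT4 had the highest share of Ser-GCT (4.51%, against 3.67% to 3.80%) and the largest total of tRF counts (1265123, against 630696 to 709421).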

How the results depend on the processing

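Of 57 alternative values of the main results, 7 moved by more than 1 SD over the libraries or, for counts, by more than 1.5 times. Leaving out the 3 most abundant sequences changed the Asp-GTC share to 17.4%, the CCA share to 86.3%, the mean length from 24.9 to 23.1 nt and the 5′ share to 6.998%. Asp-GTC held 12.9% of the counts of fragments without CCA. With fragments 1 to 3 bases short counted too, the CCA share was 93.9%, and with each sequence counted once, the mean length was 22.9 nt. Of 135 values of the other 15 names of at least 1%, 14 moved, all without the 3 most abundant sequences. The other alternatives (each library left out, counts added up, at least 10 counts, RPM, merged sequences, at least 5 counts, thinning to the smallest total, the 5′ start rule, moved nested sequences) changed none beyond these limits, but with nested sequences moved the Ala-CGC share was 0.886% instead of 1.41%, below the 1% limit for naming, a change smaller than its SD over the libraries, which includes the high value of WT2. Moving the nested sequences does not cover sequences that names share in full. The 5′ start rule, the moved nested sequences, the fragments without CCA alone and the 5′ share without the 3 sequences were chosen after seeing the data. No paired analysis was possible because genotypes were not compared and the library numbers only follow the order of deposit.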

Other observations

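The 5′ start rule placed 283 sequences in the 5′ class, of which 276 were also 5′ by pairing, and gave a 5′ share of 3.90%. With counts of the libraries added up, the dominant fragment was the same in 48 of 48 names.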
